A study of Macaca fascicularis with 32 samples.

Results

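Interneurons of the striatum are the local neurons that shape the activity of the spiny projection neurons (SPNs), the GABAergic cells that make up most of this tissue. Here they were 621 of the 37681 barcodes of 4 single-nucleus libraries of putamen (PUT) and caudate nucleus (CN). These nuclei were selected on measured values: a barcode was chosen when it had at least 2000 unique molecular identifiers (UMIs, counts of single captured RNA molecules), PDE10A under 0.15% of them, and fewer than 5 UMIs of CASZ1, OTOF and COL11A1 together, genes that mark a less common projection neuron. It also needed at least 3 UMIs of GAD1 and GAD2, which make GABA, or at least 2 of CHAT and SLC5A7, which make acetylcholine and take up choline. These values chose the nuclei, so the levels of those 8 genes are given as a description only.

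The nuclei came from cynomolgus macaques, although the extraction protocol in the labels names Macaca mulatta, and were run on a 10x 3′ platform. PD stands for a Parkinson's disease model made, per the series title, with an adeno-associated virus carrying α-synuclein plus poly(ADP-ribose), and CT for the control animals; the labels give no age, dose, injection site or time. They list 8 CT and 4 PD samples for each region (CN is written "Caudal nucleus"), but each region and treatment has 1 count matrix with no map from barcodes to samples, and its group is known from its name alone. Each matrix was therefore treated as 1 library: there is no replicate, no test and no p-value, and a difference of treatment cannot be told apart from one of animals or of library. All intervals are 95% intervals that cover counting error only.

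Striatal interneurons are known from a few classes. Cholinergic interneurons are large, tonically active cells whose output is opposed by dopamine. Most others are GABAergic and express LHX6: fast-spiking cells that carry parvalbumin or PTHLH, cells that make somatostatin, neuropeptide Y and nitric oxide, and, in primates, a large population with the tachykinin TAC3.

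The rule left 127 nuclei in PUT CT, 86 in PUT PD, 218 in CN CT and 190 in CN PD. Where 4 values follow each other below, they are in the order PUT CT, PUT PD, CN CT, CN PD. They were 1.22%, 1.12%, 2.23% and 1.94% of the barcodes of these libraries. The share in PD over that in CT was 0.913 (0.686 to 1.21) in PUT and 0.872 (0.714 to 1.06) in CN, so neither interval lay to 1 side of no difference. With at least 4000 UMIs required, the CN ratio was 1.11 (0.850 to 1.45). Their median depth was 5224, 4894.5, 4013 and 4596 UMIs, with single nuclei between 2051 and 19163. No barcode of these nuclei occurred in more than 1 library.

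Of the 4 libraries in that order, 117, 69, 204 and 182 nuclei passed through the GABA genes and 16, 24, 23 and 11 through the acetylcholine genes, with 6, 7, 9 and 3 in both. Just inside the limit, 8, 9, 46 and 37 of the nuclei had PDE10A between 0.10% and 0.15% of their UMIs. Just outside it, 8, 6, 60 and 48 further barcodes lay between 0.15% and 0.20% and otherwise met the rule. The caudate libraries thus held more nuclei close to this limit than the putamen libraries. GAD1 and GAD2 summed to exactly 3 UMIs in 17, 15, 53 and 41 nuclei, and 39, 30, 103 and 98 barcodes were left out with 2. The number of interneurons in CN therefore rests more on the limits than the number in PUT.

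Genes that the rule did not use bore out the label for most of the nuclei. LHX6, the transcription factor of GABAergic interneurons, stood at 117 counts per 1000000 UMIs (CPM) in PUT CT, 109 in PUT PD, 99.9 in CN CT and 94.96 in CN PD. Over the 4 libraries it was 104 CPM, against 2.33 in the SPN barcodes of the same libraries. NXPH1, a neurexin ligand of interneurons, stood at 2833 CPM against 43.3. The glutamatergic markers summed to at most 5.93 CPM in a library. In the substantia nigra, which the choice did not include, the same rule took 154 and 161 barcodes with LHX6 at 0.725 and 0.623 CPM.

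Clustering of the 621 nuclei gave 12 clusters, which were joined into 7 classes and named from fixed markers. The PTHLH-like class held 340 nuclei, with OPN3 at 209 CPM against 7.10 in SPNs, PTHLH at 42.0 against 4.48 and the fast potassium channel KCNC1 at 108 against 17.1. Parvalbumin itself was nearly undetected there, at 2.63 CPM. Its leading genes were COL19A1, a collagen, and IL1RAPL2, a synaptic adhesion receptor, at 1195 and 7019 CPM against 149 and 1004 in the other interneuron nuclei. The cholinergic-like class held 75 nuclei, with CHAT at 251 CPM, the choline transporter SLC5A7 at 363 and the transcription factors LHX8 and ISL1 at 252 and 156. These nuclei were the deepest, with medians of 6191 to 9778 UMIs by library.

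The TAC3-like class held 52 nuclei, with TAC3 at 144 CPM against 1.51 in SPNs, STXBP6 at 719.6 against 207 and LHX6 at 179.9. The SST/NPY-like class held 35 nuclei, with somatostatin (SST) at 208 CPM, neuropeptide Y (NPY) at 316 and nitric oxide synthase (NOS1) at 732, although these were counted in only 7, 6 and 10 of the 35 nuclei. At a finer resolution this class divided into 20 nuclei with NOS1 at 1153 CPM, SST at 334 and NPY at 506, and 15 nuclei led by ZNF804B at 2339 CPM and FOXP2 at 928. The latter group does not hold the markers of the name. The SPN gene MEIS2 stood there at 2785 CPM, in all 15 nuclei, against 1432 in SPN barcodes. These 15 nuclei are therefore given no type, although they are counted in the class. A cluster of 13 nuclei was led by ADARB2, at 7138 CPM against 93.9 in the others, a gene known from interneurons of caudal origin. CCK was seen there in a single UMI, so the cluster is called ADARB2-high and is given no type.

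The other 2 clusters went against the label. A cluster of 58 nuclei, 37 of them in CN CT and 18 in CN PD, had LHX6 at 10.4 CPM and NXPH1 at 275. It held the SPN genes MEIS2 at 1501 CPM (1432 in SPN barcodes), BCL11B at 338 (432) and PPP1R1B at 198 (232), with PDE10A at 1125 (5528). It is called MEIS2-high and not an interneuron class. Another 48 nuclei held oligodendrocyte and astrocyte RNA, with SLC1A3, an astrocyte glutamate transporter, at 430.4 CPM against 23.6 in the other nuclei. Their median Scrublet doublet score was 0.206, against 0.0128 to 0.129 in the other clusters. Both are kept in the counts of all 621 nuclei and are absent from the class comparisons. The plot of marker levels by class shows these patterns.

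**Figure D1:**
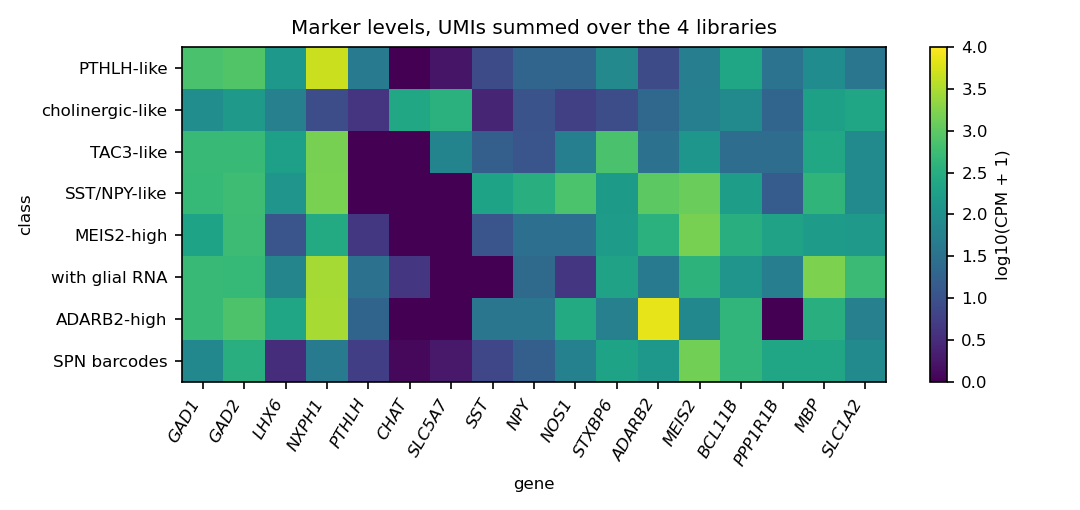
Heat map of log10(CPM + 1) for 17 marker genes (columns) in the 7 classes and in SPN barcodes (rows), with UMIs summed over the 4 libraries. NXPH1 and LHX6 were high in the GABAergic interneuron classes, CHAT and SLC5A7 in the cholinergic-like class, and MEIS2 in the MEIS2-high class at the level of the SPN barcodes.

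The cholinergic-like share of the interneurons differed by treatment in opposite directions in the 2 regions. CHAT and SLC5A7, which the rule used, are among the markers that name this class, so the share is a description only. The acetylcholine genes of the rule took 16, 24, 23 and 11 nuclei, close to the class counts that follow. In PUT it was 16 of 127 nuclei in CT (12.6%, 7.38 to 19.7) and 24 of 86 in PD (27.9%, 18.8 to 38.6), a ratio of 2.22 (1.13 to 4.46). In CN it was 25 of 218 in CT (11.5%, 7.56 to 16.5) and 10 of 190 in PD (5.26%, 2.55 to 9.47), a ratio of 0.459 (0.197 to 0.989). The CN interval reached past 1 under 3 alternatives, its ratio being 0.551 (0.252 to 1.14) with each nucleus put in a class by its own markers. The CT shares of the regions were alike within their intervals, at a PUT over CN ratio of 1.10 (0.548 to 2.14). In PD the ratio was 5.30 (2.44 to 12.4).

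The TAC3-like share in CN was 13 of 218 in CT (5.96%) and 26 of 190 in PD (13.7%), a ratio of 2.30 (1.14 to 4.86). In PUT it was 9 of 127 and 4 of 86, a ratio of 0.656 (0.148 to 2.35). With classes taken from the markers of each nucleus the CN ratio was 1.38 (0.886 to 2.15). The PTHLH-like share was 57.5%, 47.7%, 56.4% and 54.2% in the 4 libraries. Its PD over CT ratios were 0.829 (0.551 to 1.23) and 0.961 (0.732 to 1.26). The former was 0.399 (0.177 to 0.819) with each nucleus classed by its own markers. SST/NPY-like shares were 7.87%, 8.14%, 4.13% and 4.74%, and neither ratio was distinguishable from 1 at these numbers (1.03, 0.334 to 3.01, and 1.15, 0.404 to 3.26). At the finer resolution, without the 15 nuclei that lack the markers, the SST/NPY-like shares were 3.94%, 3.49%, 3.21% and 2.63%. The MEIS2-high nuclei were 16.97% and 9.47% of the interneuron choice in CN and 1.57% and 1.16% in PUT. The nuclei with glial RNA were 11.02%, 8.14%, 3.21% and 10.5%, with PD over CT ratios of 0.738 (0.252 to 1.96) in PUT and 3.28 (1.33 to 9.18) in CN; their part in the other shares is given by the ratios without these clusters, 2.13 (1.09 to 4.30) and 0.458 (0.196 to 0.987) for the cholinergic-like class.

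**Figure D2:**
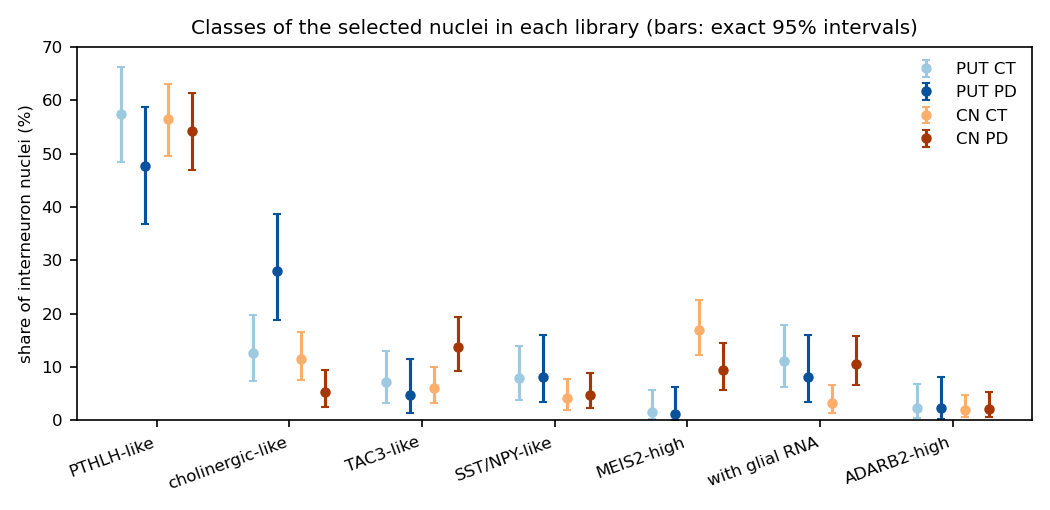
Share of the chosen nuclei (%, y axis) in each class (x axis) for the 4 libraries, with exact 95% intervals as bars. The cholinergic-like share, of a class named in part with genes of the rule, was 12.6% and 27.9% in PUT CT and PD. In CN CT and PD it was 11.5% and 5.26%.

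Across all 621 nuclei, 4623 genes had at least 50 UMIs over the PUT libraries and 6136 over the CN libraries. In PUT 73 genes were at least 2-fold higher in PD (1.58% of those compared) and 91 at least 2-fold lower (1.97%), 3.55% in all. In CN 66 were higher (1.08%) and 96 lower (1.56%), 2.64% in all. With TMM scaling in place of total UMIs the CN counts were 79 and 69. These sums mix classes whose shares differ. The measured genes of acetylcholine synthesis and transport, a list that holds CHAT and SLC5A7 of the rule and so restates the cholinergic-like share, were 4 of 4 higher in PD in PUT (median log2 0.99) and 0 of 4 higher in CN (median −0.63). The median over all genes was −0.04 in both, with 45.1% and 46.25% of them higher. Within the cholinergic-like nuclei the same list had medians of −0.07 in PUT (4 genes) and −0.16 in CN (3 genes). The comparisons below are made within classes.

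Genes of the Parkinson's disease list showed no common direction over all nuclei: 7 of 12 measured were higher in PD in PUT (median log2 0.14) and 9 of 17 in CN (0.03). In the list for poly(ADP-ribose) and NAD metabolism 4 of 8 and 7 of 13 were higher (−0.07 and 0.08). No gene of the MHC class I or interferon lists reached 50 UMIs in PTHLH-like nuclei. Summed there, the interferon list gave 44 and 18 UMIs in PUT, a PD over CT ratio of 0.779 (0.424 to 1.38), and 75 and 45 in CN, 0.584 (0.394 to 0.856). The MHC class I list gave 32 and 10 UMIs in PUT, 0.595 (0.261 to 1.24), and 41 and 45 in CN, 1.07 (0.684 to 1.67).

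PTHLH-like nuclei of the PD libraries carried more RNA of some named adhesion genes and ion channel genes than those of the CT libraries, in both regions. They also carried less RNA of activity-induced genes in both. The fixed synaptic adhesion list as a whole was not higher in PD in PUT. The class had 73 nuclei in PUT CT, 41 in PUT PD, 123 in CN CT and 103 in CN PD. It spanned 5 clusters that were unequally filled. Cluster 0 held 44 and 88 of the CT nuclei of PUT and CN and 4 and 1 of the PD nuclei. Cluster 1 held 85 of the 103 CN PD nuclei and 8 of all others, and cluster 10 held 22 PUT PD nuclei and no other. Clusters 3 and 7 drew on all libraries, with 24, 10, 14 and 4 and with 5, 4, 14 and 13 nuclei. A cluster filled by 1 library may be that library and not a type.

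In PUT 2310 genes were compared, of which 32 were at least 2-fold higher in PD (1.39%) and 40 at least 2-fold lower (1.73%), 3.12% in all. In CN, of 3797 genes, 34 were higher (0.895%) and 59 lower (1.55%), 2.45% in all, or 42 and 45 genes with TMM scaling. Of 2298 genes compared in both regions, 63 had both intervals above no difference, 50 both below and 7 on opposite sides. The log2 ratios of the regions, which come from different libraries, had a Pearson r of 0.34 and a Spearman rho of 0.28 across these genes, which are not independent replicates. Whether the regions come from the same animals is not in the labels.

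**Figure D3:**
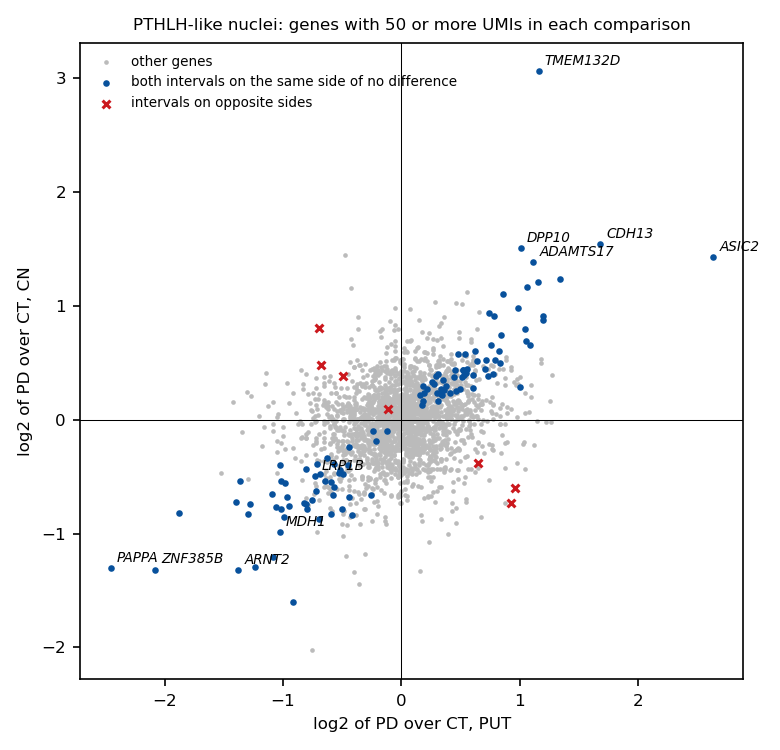
Log2 of PD over CT in PUT (x axis) and CN (y axis) for the 2298 genes compared in both regions within PTHLH-like nuclei. The 113 genes in blue had both intervals on the same side of no difference, and the 7 crosses on opposite sides.

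Several cell adhesion genes differed in both regions. CDH13, a cadherin anchored in the membrane by a lipid, stood at 179 CPM in PUT CT, 575 in PUT PD, 235 in CN CT and 687 in CN PD. Both PD libraries lay above both CT libraries, at 3.21-fold (2.34 to 4.45) in PUT and 2.93-fold (2.36 to 3.66) in CN. SPNs of the same libraries had far less of it, at 27.4, 49.4, 20.3 and 56.1 CPM, with PD also above CT. Within clusters 0, 1 and 10 alone, a limit added after seeing the data, the log2 ratios of CDH13 were 3.37 and 2.66, against 1.68 and 1.55 in the whole class. These clusters were formed from the same counts and divide largely by treatment. Ratios within them, here and below, are therefore no independent support. CNTNAP5, of the contactin-associated family, stood at 1228, 2114, 1295 and 2432 CPM, 1.72-fold (1.499 to 1.98) and 1.88-fold (1.70 to 2.07) higher in PD. CDH12, another cadherin, stood at 112, 250.2, 68.5 and 159.6 CPM. By contrast CNTNAP4, a relative of CNTNAP5, was lower in PD, at 1284, 1076, 1214 and 767 CPM, with ratios of 0.838 (0.707 to 0.991) and 0.632 (0.554 to 0.721). Over the synaptic adhesion list 6 of 14 measured genes were higher in PUT (median log2 −0.03) and 12 of 15 in CN (0.09), beside all-gene medians of 0.01 and −0.02. The intervals of this list excluded no difference for 1 higher and 4 lower genes in PUT and for 6 and 1 in CN. Of all genes compared, 50.5% were higher in PD in PUT and 48.0% in CN, against which the list counts of this class can be read.

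Genes of ion channels and transporters followed. ASIC2, a subunit of proton-gated cation channels, stood at 50.3, 319, 473 and 1278 CPM. It was 6.35-fold (3.70 to 11.4) and 2.70-fold (2.32 to 3.16) higher in PD and differed between regions as much, so that PUT PD lay below CN CT. In SPNs ASIC2 stood at 624, 658, 1033 and 1229 CPM. SLC24A3, a sodium, calcium and potassium exchanger, stood at 257, 591, 326 and 614 CPM, 2.30-fold (1.73 to 3.06) and 1.88-fold (1.55 to 2.30) higher in PD. The ERG potassium channel gene KCNH7 stood at 131, 272, 243 and 422 CPM, with ratios of 2.07 (1.36 to 3.14) and 1.74 (1.38 to 2.20). CACNA1A, the pore of the P/Q-type calcium channel of nerve terminals, differed less but in both regions, at 1.27-fold (1.07 to 1.52) and 1.28-fold (1.12 to 1.47).

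Members of the complex of A-type potassium channels did not move in 1 direction. DPP10, an accessory subunit, stood at 1577, 3173, 998 and 2846 CPM, 2.01-fold (1.79 to 2.26) and 2.85-fold (2.57 to 3.17) higher in PD. Its PUT log2 ratio was 1.01, and 1.88 within clusters 0, 1 and 10. DPP10 was also higher in PD in SPNs, at 159.5, 454, 439 and 827 CPM, and in oligodendrocyte barcodes, at 103, 237, 149.7 and 392. KCNIP4, a calcium-sensing subunit, stood at 101, 256, 185 and 438 CPM, with ratios of 2.54 (1.61 to 4.03) and 2.37 (1.85 to 3.07). A single nucleus held 44% of its UMIs in PUT PD, and without the top nucleus of each library its PUT log2 ratio was 0.73 in place of 1.34. KCND2, the Kv4.2 pore, was lower in PD, at 266, 122, 226 and 143 CPM, with ratios of 0.461 (0.279 to 0.733) and 0.634 (0.463 to 0.863). SPNs held far more of both genes, between 2920.3 and 5845 CPM of KCNIP4 and between 1831 and 2685 of KCND2. These 3 genes were put side by side after their values were seen. Of the fixed potassium channel list, 11 of 15 measured genes were higher in PD in PUT (median log2 0.15) and 10 of 16 in CN (0.05). Their intervals excluded no difference for 3 higher and 1 lower gene in PUT and for 4 and 1 in CN.

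Some genes known from fast-spiking cells, chosen for their role, had intervals that included no difference. KCNC2, a Kv3 channel, stood at 1334, 1480.2, 1418 and 1341 CPM, with PD over CT intervals of 0.954 to 1.29 and 0.849 to 1.05. KCNMA1, the calcium-activated BK channel, stood at 1477, 1571, 1357 and 1454 CPM. The AMPA receptor subunit GRIA4 stood at 3188, 3386, 3839 and 3621 CPM, with intervals of 0.962 to 1.17 and 0.883 to 1.01. Of the identity genes, NXPH1 stood at 4505, 4339, 4842 and 5029 CPM and LHX6 at 137, 181, 122 and 125, with PUT intervals of 0.884 to 1.05 and 0.827 to 2.09. Each interval of these 5 genes in PUT and CN excludes a 2-fold difference, except that of LHX6 in PUT. Of the fixed calcium-binding protein list, 0 of 2 measured genes were higher in PD in PUT (median log2 −0.08). In CN 0 of 4 were higher (−0.67), and 3 intervals lay below no difference. Of the interneuron transcription factor list, 4 of 6 were higher in PUT (0.23) and 4 of 9 in CN (−0.04). Its intervals excluded no difference for 1 higher gene in PUT and 2 lower genes in CN.

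Of the glutamate receptor list, 8 of 15 measured genes were higher in PD in PUT (median log2 0.01) and 12 of 18 in CN (0.11). GRM8, a presynaptic metabotropic receptor, was scarce, at 13.98, 47.9, 27.0 and 105 CPM, and in CN was 3.89-fold (2.09 to 7.79) higher in PD. Of the GABA receptor list 6 of 11 were higher in PUT (0.12) and 4 of 11 in CN (−0.10). Medians of the sodium and calcium channel list were −0.01 (6 of 12 higher) and 0.18 (8 of 13), and of the synaptic vesicle list 0.11 (6 of 11) and −0.08 (6 of 13).

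Extracellular and other genes completed the shared higher set. ADAMTS17, a secreted metalloprotease, stood at 386, 836, 216 and 566 CPM, 2.17-fold (1.71 to 2.74) and 2.62-fold (2.08 to 3.31) higher in PD, and between 8.63 and 11.9 in SPNs. It is among the leading genes of cluster 10, which came from PUT PD alone. THSD4, a matrix protein among the leading genes of cluster 7, stood at 22.4, 144, 78.9 and 279 CPM. Its CN log2 ratio was 1.81 in the class and 3.10 within clusters 0, 1 and 10. TMEM132D, a membrane protein, stood at 95.1, 213, 18.7 and 164 CPM, with ratios of 2.24 (1.38 to 3.65) and 8.76 (4.39 to 19.8).

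The genes lower in PD in both regions had mixed functions. ARNT2, a partner of activity-induced transcription factors such as NPAS4, stood at 268 CPM in PUT CT, 101 in PUT PD, 168 in CN CT and 66.6 in CN PD. Both PD libraries lay below both CT libraries, at ratios of 0.377 (0.217 to 0.621) and 0.396 (0.256 to 0.601). SPNs had 436, 493, 327 and 345 CPM of ARNT2, with PD not below CT. ZNF385B, a zinc finger gene, stood at 213, 47.9, 112 and 44.4 CPM, with ratios of 0.225 (0.0993 to 0.451) and 0.396 (0.230 to 0.662). SPNs held more of it, at 1572, 1367, 942 and 810.0 CPM. PAPPA, a protease that frees insulin-like growth factor from its binding proteins, stood at 159, 26.6, 91.3 and 36.4 CPM. ABCA13, among the leading genes of cluster 3, stood at 159, 26.6, 78.9 and 4.04.

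Surface and synaptic genes were also among the lower ones. LRP1B, a large receptor of the LDL receptor family, stood at 2883, 1741, 2576 and 1828 CPM, with ratios of 0.604 (0.532 to 0.685) and 0.710 (0.651 to 0.774). Its PUT log2 ratio was −0.73, and −1.23 within clusters 0, 1 and 10. OLFM3, a secreted olfactomedin, stood at 375, 186, 494 and 273 CPM, and the netrin receptor relative UNC5D at 333, 170.4, 477 and 283. PLCXD3, a phospholipase-like gene, stood at 629, 309, 674 and 465. PDE1B, a calcium-dependent phosphodiesterase, stood at 134, 69.2, 143 and 46.5 CPM, with ratios of 0.516 (0.256 to 0.967) and 0.324 (0.193 to 0.527).

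MDH1, the cytosolic malate dehydrogenase, stood at 221, 106, 266 and 133 CPM in PTHLH-like nuclei, with ratios of 0.482 (0.279 to 0.795) and 0.502 (0.367 to 0.680). In SPNs it stood at 175, 92.4, 183 and 89.7 CPM and in oligodendrocyte barcodes at 158, 61.8, 147 and 73.6, lower in PD in both.

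**Figure D4:**
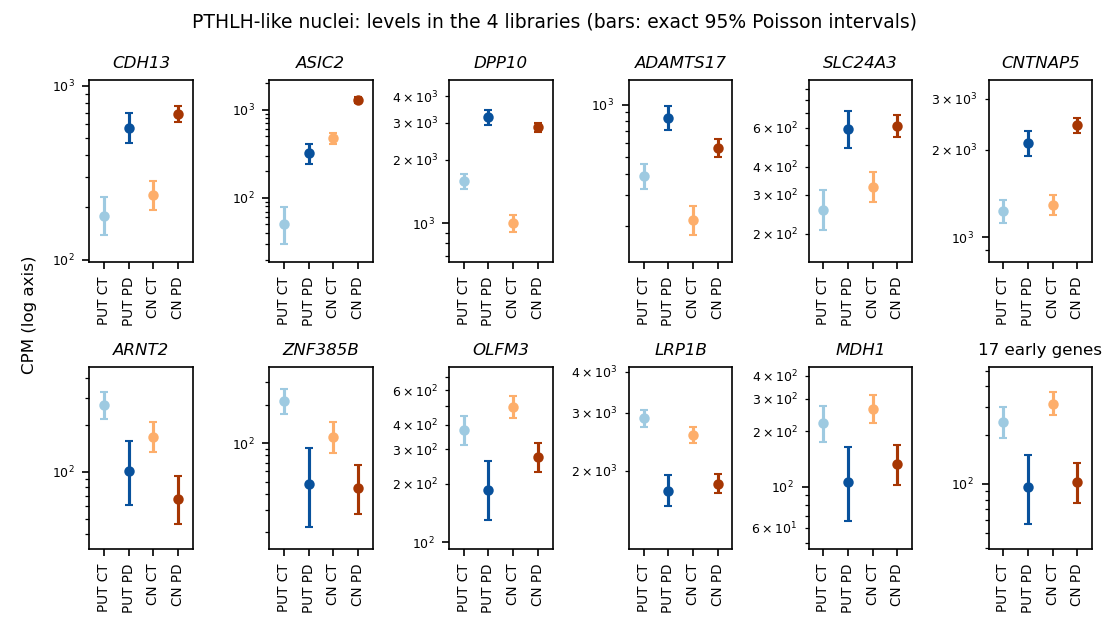
Levels in PTHLH-like nuclei (CPM, log axis) in the 4 libraries for 11 genes and for the sum of 17 immediate early genes, with exact 95% Poisson intervals as bars. The first 6 genes were higher and the other 5, like the immediate early sum (240.5 and 95.8 CPM in PUT, 313 and 103 in CN), lower in PD in both regions.

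The immediate early genes are induced within minutes of neuronal activity or of tissue handling. Each was too sparse to be compared alone with at least 50 UMIs, so the 17 list members in the annotation were summed, a choice made after seeing the data. The sum was 86 UMIs (240.5 CPM) in PUT CT, 18 (95.8) in PUT PD, 151 (313) in CN CT and 51 (103) in CN PD. PD over CT was 0.399 (0.226 to 0.668) in PUT and 0.329 (0.234 to 0.454) in CN. UMIs of these genes were found in 33 of 73, 13 of 41, 61 of 123 and 30 of 103 nuclei, at median depths of 4656, 4246, 3749 and 4528 UMIs, with at most 14 in 1 nucleus. With every nucleus thinned to 2000 UMIs the ratios were 0.396 (0.159 to 0.866) and 0.360 (0.213 to 0.586).

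FOS was counted 5, 0, 33 and 3 times, which in CN gives a ratio of 0.0885 (0.0174 to 0.282). NPAS4, induced by calcium entry, was counted 6, 0, 15 and 2 times, EGR1 5, 0, 14 and 1 times, and the phosphatase gene DUSP1 6, 1, 15 and 3 times. NR4A1 and NR4A3, nuclear receptors, were counted 16, 2, 17 and 7 times and 15, 4, 25 and 16 times. In these 6 genes, named after their values were seen, the CT library of each region had more UMIs per total than the PD library. Their sum gave 0.252 (0.0965 to 0.555) in PUT and 0.262 (0.171 to 0.389) in CN. The other 11 genes of the list gave 33 and 11 UMIs in PUT, a ratio of 0.635 (0.289 to 1.29), and 32 and 19 in CN, 0.578 (0.309 to 1.05), so that their intervals included no difference. FOS is also the first gene of cluster 0, which held most CT nuclei. With clusters 0, 1 and 10 alone the sums gave 0.338 (0.153 to 0.677) and 0.291 (0.196 to 0.421). Those clusters were formed from the same counts and divide largely by treatment, so these values are no independent support. Over all 621 nuclei, the PTHLH-like ones included, the sum of the 17 genes was 133, 32, 185 and 74 UMIs. Its PD over CT ratios were 0.336 (0.221 to 0.4975) and 0.388 (0.2925 to 0.511). In SPNs the same sum was 59.9 and 49.8 CPM in PUT CT and PD and 56.9 and 46.1 in CN. In oligodendrocyte barcodes it was 39.9 and 32.5, and 45.7 and 27.7. In cholinergic-like nuclei only 3, 8, 5 and 2 UMIs were counted, in as many of the 16, 24, 25 and 10 nuclei, too few to compare. The difference between cell types was not tested, and the time from death to freezing is not in the labels.

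Oligodendrocyte markers in the PTHLH-like nuclei summed to 785.8, 793, 728 and 777.6 CPM, SPN markers to 998, 1001, 888 and 957, and astrocyte markers to 11.2, 154, 64.3 and 46.5. Their part in the gene differences was not tested.

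Between regions, PTHLH-like nuclei of PUT and CN were compared within each treatment. Of 2673 genes compared in both treatments, 79 had both intervals on the side of PUT, 66 on that of CN and 6 on opposite sides. The genes named here were drawn from those on the same side in both, so that agreement follows from the choice. In CT 3430 genes were compared, 50 at least 2-fold higher in PUT (1.46%) and 42 at least 2-fold lower (1.22%), 2.68% in all. In PD, of 2746 genes, 51 were higher (1.86%) and 59 lower (2.15%), 4.01% in all. CALN1, a calmodulin-like gene, stood at 1507 and 1555 CPM in PUT CT and PD and at 666 and 626 in CN, 2.26-fold (1.97 to 2.61) and 2.48-fold (2.11 to 2.92) higher in PUT, whereas SPNs had 859.6 to 1047 in all 4. C8orf34 stood at 341 and 239.6 against 91.3 and 52.5 CPM, and KCNAB2, a potassium channel beta subunit, at 207 and 282 against 89.2 and 107. The orphan receptor GPR149, which leads cluster 10, stood at 246 and 447 against 64.3 and 139. Higher in CN were DOCK2, an activator of Rac, at 55.9 and 26.6 CPM in PUT and 309 and 189.8 in CN, and PDE3A, a phosphodiesterase, at 1119 and 1081 against 1766 and 1779. SPNs showed the same direction for DOCK2, at 9.53 and 7.08 against 56.1 and 59.5, and 17.1 to 28.6 CPM of PDE3A in all libraries.

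Cholinergic-like nuclei were too few for the planned minimum of 30 nuclei a library. They were compared after this was seen, with 16 nuclei in PUT CT, 24 in PUT PD, 25 in CN CT and 10 in CN PD, and totals of 99127 to 222728 UMIs. Cluster 6 held 15 and 24 of the PUT nuclei and 2 and 1 of the CN nuclei, and cluster 9 held 1 and 0 of PUT and 23 and 9 of CN. The regions thus lay in different clusters, while the treatments did not. Among identity genes, LHX8 stood at 221, 233, 326 and 222 CPM and TACR1, the substance P receptor of these cells, at 963, 1176, 739 and 686. DRD2, the dopamine receptor through which dopamine restrains them, stood at 321, 341, 259 and 242 CPM, with PD over CT intervals of 0.731 to 1.56 and 0.542 to 1.58. CHAT, used in the rule, stood at 341, 296, 197 and 101, and SLC17A8, a vesicular glutamate transporter, at 161, 238, 234 and 242.

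The regions were compared within each treatment. The genes named here were drawn from those with intervals on the same side in both treatments, so that agreement follows from the choice. In CT 1167 genes were compared, 25 at least 2-fold higher in PUT (2.14%) and 28 at least 2-fold lower (2.40%), 4.54% in all. In PD, of 1204 genes, 36 were higher (2.99%) and 35 lower (2.91%), 5.90% in all. Of 1034 genes compared in both, 44 had both intervals on the side of PUT, 50 on that of CN and 3 on opposite sides. Only 9 were at least 2-fold higher in PUT in both treatments and 9 at least 2-fold lower. The Pearson r was 0.47 and the Spearman rho 0.32 across genes. Among receptors and channels, TRPM3, a cation channel that is among the leading genes of cluster 6, stood at 749 and 929 CPM in PUT CT and PD and at 111 and 60.5 in CN. The AMPA receptor subunit GRIA4 stood at 1044 and 844 against 382 and 222, 2.73-fold (2.02 to 3.73) and 3.80-fold (2.44 to 6.21) higher in PUT. The calcium-dependent phosphodiesterase PDE1C, also a leading gene of cluster 6, stood at 6883 and 6187 against 3868 and 3248.

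Adhesion and guidance genes differed in both directions. OPCML, of the IgLON family, stood at 8723 and 7956 CPM in PUT against 4022 and 4076 in CN. SPNs showed the same direction, at 4282 and 3712 against 2051 and 2276. TENM2, a teneurin, was higher in CN, at 1692 and 1289 CPM in PUT and 6811 and 5851 in CN, with PUT over CN ratios of 0.248 (0.216 to 0.285) and 0.220 (0.191 to 0.254). SPNs again showed this direction, at 1240.2 and 1299.6 against 3811 and 4414. CADM1 stood at 114 and 171 against 622 and 666, and the repellent SEMA3A at 194 and 135 against 487 and 363, both also higher in CN SPNs. ZFPM2, a transcriptional cofactor, stood at 33.4 and 53.9 CPM against 339 and 555, with ratios of 0.0987 (0.0308 to 0.245) and 0.0971 (0.0473 to 0.184). For ZFPM2 the SPN libraries, at 29.8 and 35.5 against 35.0 and 55.7, differed less. FIGN, a microtubule-severing enzyme among the leading genes of cluster 9, stood at 254 and 198 against 899 and 1059 CPM, and SPNs had 113 to 146.

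Between treatments, 1453 genes were compared in cholinergic-like nuclei of PUT, 20 at least 2-fold higher in PD (1.38%) and 16 at least 2-fold lower (1.10%), 2.48% in all. In CN, of 921 genes, 16 were higher and 16 lower (1.74% each), 3.47% in all, or 13 and 22 genes with TMM scaling. Of 897 genes compared in both regions, 29 had both intervals above no difference, 17 both below and 4 on opposite sides. The log2 ratios of the regions had a Pearson r of 0.30 and a Spearman rho of 0.22 across genes. Genes on the same side in both regions were among those open to naming, so their agreement follows from the choice. GNAT3, a G protein alpha subunit known from taste cells, was lower in PD in both regions. It stood at 696 CPM in PUT CT, 202 in PUT PD, 689.7 in CN CT and 192 in CN PD, with ratios of 0.290 (0.20 to 0.416) and 0.278 (0.161 to 0.455). Both PD libraries lay below both CT libraries, and SPNs had at most 0.941 CPM. Another G protein subunit, GNAL, which couples dopamine and adenosine receptors to adenylyl cyclase, was higher in PD, at 120.4, 296, 142 and 323 CPM, with ratios of 2.46 (1.44 to 4.40) and 2.28 (1.29 to 4.08). SPNs held 830.3 to 1010.2 CPM of GNAL. The SPN marker sum in cholinergic-like nuclei was also higher in PD, at 522 and 862 CPM in PUT and 474 and 978.5 in CN, and the oligodendrocyte marker sum was 482 and 373 in PUT and 228 and 504 in CN. Their part in the differences of GNAL and of the other genes of this class was not tested.

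The genes higher in PD included some of synapses. SYNPR, a synaptic vesicle membrane protein, stood at 227, 593, 296 and 706 CPM, 2.61-fold (1.78 to 3.92) and 2.39-fold (1.63 to 3.52) higher in PD. SPNs also hold SYNPR, at 258, 294, 518 and 640.1 CPM. The fixed synaptic vesicle list had 4 of 12 measured genes higher in PUT (median log2 −0.07) and 6 of 9 in CN (0.03). DLGAP1, a scaffold of the postsynaptic density, stood at 722, 1383, 542 and 958 CPM, with ratios of 1.91 (1.53 to 2.41) and 1.77 (1.31 to 2.39), with 42% of its UMIs in 1 nucleus in CN PD. Without the top nucleus of each library its CN log2 ratio was 0.43 in place of 0.82. The hormone receptor gene FSHR stood at 120.4, 364, 302 and 585 CPM and at most at 1.36 in SPNs. A few nuclei carried much of FSHR, the top nucleus holding 27% to 35% of its UMIs in a library.

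Channel and receptor genes were lower or mixed. KCNIP4 stood at 5158, 2784, 10660 and 8595 CPM, with ratios of 0.540 (0.485 to 0.601) and 0.806 (0.742 to 0.876). TMEM132D stood at 435, 49.4, 769.8 and 404, with ratios of 0.114 (0.0541 to 0.217) and 0.524 (0.358 to 0.754). Both genes were higher in PD in PTHLH-like nuclei; the classes share their libraries, and this difference was not tested. Of the glutamate receptor list 3 of 10 measured genes were higher in PD in PUT (median log2 −0.33) and 2 of 8 in CN (−0.21), beside all-gene medians of 0.02 and 0.03 and 51.3% and 53.6% of all genes higher. Of the GABA receptor list 1 of 6 was higher in PUT (−0.71) and 1 of 4 in CN (−0.04). GABRG3, a subunit of GABA-A receptors, stood at 1512 and 804 CPM in PUT, a ratio of 0.532 (0.434 to 0.650), and at 1146 and 1099.6 in CN, 0.960 (0.751 to 1.22). The sodium and calcium channel list had 8 of 11 higher in PUT (0.33) and 3 of 8 in CN (−0.05). The Parkinson's disease list had 5 of 6 higher in PUT (0.25) and 0 of 5 in CN (−0.53).

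**Figure D5:**
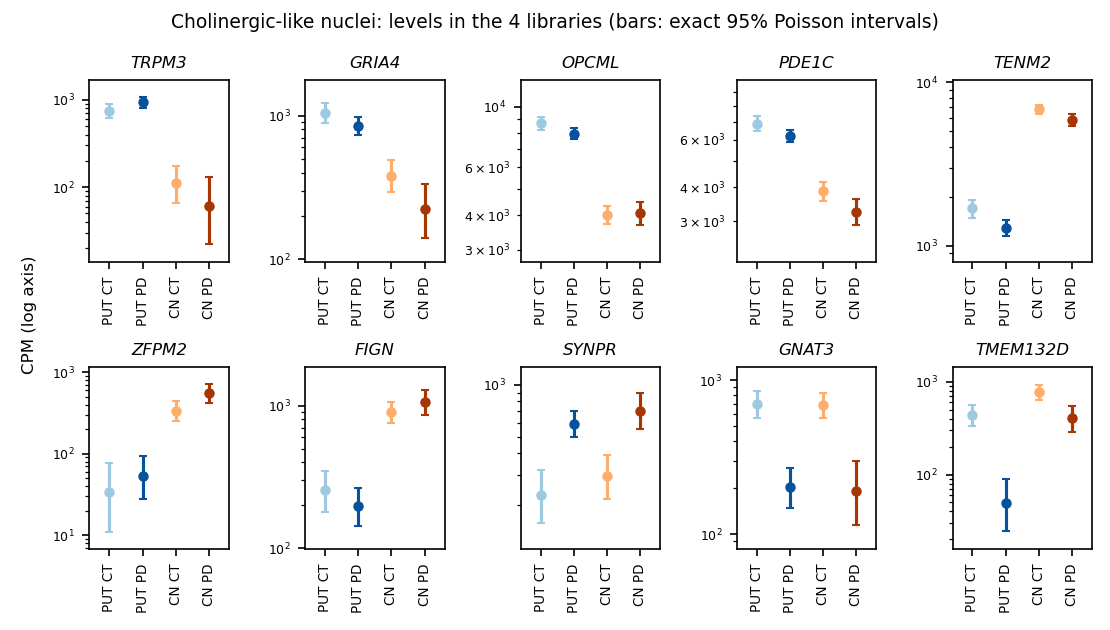
Levels in cholinergic-like nuclei (CPM, log axis) of 10 genes in the 4 libraries, with exact 95% Poisson intervals as bars. TRPM3, GRIA4, OPCML and PDE1C were higher in PUT and TENM2, ZFPM2 and FIGN in CN, while SYNPR was higher and GNAT3 and TMEM132D lower in PD in both regions.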

How the data were processed

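The authors deposited UMI counts per gene and barcode with no normalization, made with Cell Ranger 7.0.1 per the file headers; the submitters' processing notes name hg38, while the 22316 gene identifiers are of Macaca fascicularis, with 16297 symbols. Members and gene lists were chosen with earlier results of these data known. Total counts per library were 33382141 and 23250580 for PUT (CT, PD) and 31098292 and 36723856 for CN. SPN barcodes (18049) met the UMI minimum with PDE10A at or over the limit; oligodendrocyte barcodes (3888) had their markers at 1% or more of UMIs. No correction for free RNA was made and no barcode was removed as a doublet; 9, 0, 13 and 15 members had a Scrublet score over 0.25.

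Members were clustered with scanpy 1.11.5 (scaling to 10000, 2000 variable genes, 30 components, 15 neighbours, Leiden resolution 1.0). Counts were summed per class and library and divided by their total. A gene needed 50 UMIs in the 2 libraries of a comparison; 0.5 UMI was added before log2. Ratios have exact conditional binomial, levels exact Poisson and shares Clopper-Pearson intervals at 95%. The intervals of share ratios treat the counts as Poisson. They are therefore not exact, and are too wide where a share is large, as for the PTHLH-like class. Genes were ranked by the end of the interval closer to a ratio of 1, and the 8 highest and 8 lowest per region, and shared by the regions, were open to naming; those with no unique symbol, of mitochondria, ribosomes or globins, linked to sex, or marking other cells were left out. List and marker genes were named for their role. TMM factors came from edgeR 4.0.16. On simulated Poisson counts for the PTHLH-like PUT comparison, 96.3% of 2291 intervals held the true ratio. Of the genes changed by a log2 of 1.5, 97.7% lay on the right side. These counts follow the model that the intervals assume, with no spread between nuclei, animals or libraries. They check the calculation alone and not how well the intervals suit the data. Alternatives changed the UMI minimum, PDE10A and GAD limits, gene minimum, added count, scaling, depth, clustering and classes; 6 were added after seeing the data. Values of some genes are not reported here. Sequences were not used here.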

Additional observations from a re-analysis of the deposited data

Results flagged for a closer look

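The cholinergic-like share of the interneuron nuclei differed by treatment in opposite directions, with a PD over CT ratio of 2.22 in PUT and 0.459 in CN. CHAT and SLC5A7, which the rule used, are among the markers that name this class, so the share is a description only. Each interval lay on its own side of 1, and the difference between regions was not tested. The same holds for the genes that follow.

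In PTHLH-like nuclei 7 genes had intervals on opposite sides of no difference in PUT and CN. The log2 of PD over CT was −0.70 in PUT and 0.81 in CN for ATP8A1, a phospholipid flippase, −0.49 and 0.39 for DAB1, an adaptor of reelin signalling, and −0.67 and 0.48 for SESN1, a stress-induced sestrin. It was 0.93 and −0.73 for GCC2, a Golgi protein, 0.96 and −0.60 for GDPD1, and 0.65 and −0.38 for RGS7BP, a partner of regulators of G protein signalling. For OPCML it was −0.11 and 0.09. In cholinergic-like nuclei the log2 of PD over CT was −0.49 in PUT and 0.58 in CN for IL1RAPL1, a synaptic adhesion receptor, and −0.37 and 0.33 for RIMS2, a protein of the release site.

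Of 819 genes compared in both classes and both regions, 3 had intervals on opposite sides in PTHLH-like and cholinergic-like nuclei in both regions, a difference that was not tested. For KCNIP4 the log2 of PD over CT was 1.34 and 1.24 in PTHLH-like nuclei of PUT and CN and −0.89 and −0.31 in cholinergic-like nuclei. For TMEM132D it was 1.16 and 3.06 against −3.09 and −0.92, and for SGCZ, a sarcoglycan, −0.45 and −0.68 against 0.20 and 0.27.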

How the results depend on the processing

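Of the share ratios and the genes named within classes, none whose interval excluded no difference changed direction under the alternatives run; over all nuclei some genes not named here did. Of the values that answer a comparison, 354 under alternatives stayed and 18 moved. A ratio or median stayed when it lay within the main interval. A count of genes past 2-fold stayed when it lay within a fixed fold range of the main count, which is not an error. The CN ratio of interneuron shares, 0.872 with an interval including 1, was 1.11 with at least 4000 UMIs, and the PTHLH-like PUT share ratio 0.399 with classes from the markers of each nucleus. Counts of genes past 2-fold moved with the number of genes compared. Over all nuclei, a minimum of 20 UMIs gave 567 in PUT and 601 in CN, 100 UMIs gave 56 and 40, and thinning to 2000 UMIs gave 31 and 75 (main 164 and 162); equal class weights gave 106 in PUT. In PTHLH-like nuclei (main 72 and 93) these settings gave 405 and 495, 14 and 21, and 16 and 35. Clusters 0, 1 and 10 alone, added after seeing the data, gave 30 in PUT, and in CN at least 4000 UMIs gave 56 and GAD1 and GAD2 of at least 5 UMIs gave 61.

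Of the named genes' log2 ratios in PTHLH-like nuclei, 419 stayed and 6 moved in PUT and 512 and 17 in CN; in cholinergic-like nuclei 543 and 9, and 482 and 3. ZNF385B in PUT ranged from −3.11 with at least 4000 UMIs to −1.48 with the mean of nuclei. TMM factors moved log2 ratios by less than 0.1, which turned the CN split over all nuclei from 66 higher and 96 lower to 79 and 69. No paired analysis was possible because each group is 1 library and its barcodes carry no replicate number. At this depth, genes under 50 UMIs were not compared, nor were genes within classes other than the PTHLH-like and cholinergic-like ones.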
